A study of Mus musculus with 2 samples.

Results

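High-scoring ESCs were the 503 serum/LIF ESCs (5.00% of 10065) with the most UMIs of 5 hypoxia-inducible genes, Ndufa4l2, Adm, Ankrd37, Pfkfb3 and Plod2, per 10000 UMIs of the cell. A UMI is a unique molecular identifier, which counts 1 captured mRNA molecule. The 10065 cells came from a single library of 13184 barcodes, of which 11462 had at least 1000 detected genes and 11054 of those had at most 10% mitochondrial UMIs. Another 989 cells with a UMI of Col1a2 (fibroblasts) or Gata6 (primitive endoderm) were left out. The comparison group was the 4781 cells (47.5%) without a UMI of any score gene, called score-0 cells, and a further 4781 cells lay between.

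The library was a mixture, in equal cell numbers, of mouse ESCs of the ICR strain at 0 h, grown in serum/LIF on feeder cells. 1 part was WT cells that carried the ROSA mT/mG reporter and thus transcribed tdTomato, and the other was Cnot8 KO cells. Cnot8 is a deadenylase of the Ccr4-Not complex. High-scoring and score-0 cells shared the medium, the feeders and the library. Each group held cells with tdTomato UMIs and cells with UMIs of Y-linked genes, and the genotype of single cells was not assigned. As 1 library has no replicates, no test was run, and the differences are those between groups of cells of this library. Values are UMIs per 1000000 UMIs (CPM) of the summed cells with exact Poisson intervals, shares carry exact binomial intervals, and these intervals cover counting error only. The ESC library held 144584246 UMIs. Of its barcodes, 41 were also found in the 48h-EpiLC library, among them 3 high-scoring cells, and without the 41 the medians of the HIF target and glycolysis lists below were 0.70 and 0.66.

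Hypoxia-inducible factors (HIFs) are transcription factors made of an oxygen-labile alpha subunit, such as HIF1A, and the stable partner ARNT. In normal oxygen the prolyl hydroxylases EGLN1, EGLN2 and EGLN3 mark the alpha subunit, which the ubiquitin ligase subunit VHL then removes. At low oxygen the alpha subunit persists and switches on genes for glucose uptake, glycolysis, mitophagy, collagen modification and its own hydroxylases. Alpha-subunit control acts mainly on the protein, so the mRNAs of the subunits say little about the activity of the pathway. Of the score genes, Ndufa4l2 encodes a mitochondrial protein related to an electron transport subunit, Adm the peptide adrenomedullin, Ankrd37 an ankyrin repeat protein, Pfkfb3 an enzyme that makes the glycolytic activator fructose 2,6-bisphosphate and Plod2 a lysyl hydroxylase of collagen.

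The HIF complex binds the core motif ACGTG or GCGTG. Promoters of score genes and of genes that were high in high-scoring cells are printed because they show how this motif lies around their start sites. Each runs from 250 bases before to 50 bases after the start of a RefSeq transcript, 5′ to 3′ on the strand of the gene, and capitals mark the motif on either strand, with overlapping matches joined.
Ankrd37 (GRCm38.p6, chr8:45999801-46000100, minus strand): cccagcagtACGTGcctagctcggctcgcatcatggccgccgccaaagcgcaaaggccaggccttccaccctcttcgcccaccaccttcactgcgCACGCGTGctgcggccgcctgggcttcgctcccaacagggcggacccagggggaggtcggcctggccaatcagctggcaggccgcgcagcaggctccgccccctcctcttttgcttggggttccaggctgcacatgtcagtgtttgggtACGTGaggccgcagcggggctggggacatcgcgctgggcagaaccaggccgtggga
Adm (GRCm38.p6, chr7:110627407-110627706, plus strand): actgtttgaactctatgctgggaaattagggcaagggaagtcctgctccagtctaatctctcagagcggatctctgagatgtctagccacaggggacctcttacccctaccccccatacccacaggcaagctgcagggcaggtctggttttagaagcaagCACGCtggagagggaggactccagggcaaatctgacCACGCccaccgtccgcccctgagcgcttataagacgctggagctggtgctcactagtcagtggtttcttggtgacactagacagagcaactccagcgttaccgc
Pfkfb3 (GRCm38.p6, chr2:11553880-11554179, minus strand): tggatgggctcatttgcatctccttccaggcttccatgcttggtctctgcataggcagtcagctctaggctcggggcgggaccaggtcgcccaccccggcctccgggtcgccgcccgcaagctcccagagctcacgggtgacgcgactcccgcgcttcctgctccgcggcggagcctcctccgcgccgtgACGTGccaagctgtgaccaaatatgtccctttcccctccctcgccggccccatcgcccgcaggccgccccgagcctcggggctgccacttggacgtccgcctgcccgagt
Ddit4 (GRCm38.p6, chr10:59951721-59952020, minus strand): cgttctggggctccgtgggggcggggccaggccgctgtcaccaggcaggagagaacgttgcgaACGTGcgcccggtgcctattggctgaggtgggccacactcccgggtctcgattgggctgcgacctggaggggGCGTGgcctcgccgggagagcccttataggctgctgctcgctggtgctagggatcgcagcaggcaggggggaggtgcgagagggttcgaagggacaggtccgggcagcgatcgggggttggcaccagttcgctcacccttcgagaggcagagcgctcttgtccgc
Bnip3 (GRCm38.p6, chr7:138909457-138909756, minus strand): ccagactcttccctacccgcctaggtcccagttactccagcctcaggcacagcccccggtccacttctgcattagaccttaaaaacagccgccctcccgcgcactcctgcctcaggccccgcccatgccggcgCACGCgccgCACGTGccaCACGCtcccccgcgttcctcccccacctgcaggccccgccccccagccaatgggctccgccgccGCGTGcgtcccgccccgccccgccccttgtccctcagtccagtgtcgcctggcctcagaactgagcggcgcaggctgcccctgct
Pgk1 (GRCm38.p6, chrX:106186850-106187149, plus strand): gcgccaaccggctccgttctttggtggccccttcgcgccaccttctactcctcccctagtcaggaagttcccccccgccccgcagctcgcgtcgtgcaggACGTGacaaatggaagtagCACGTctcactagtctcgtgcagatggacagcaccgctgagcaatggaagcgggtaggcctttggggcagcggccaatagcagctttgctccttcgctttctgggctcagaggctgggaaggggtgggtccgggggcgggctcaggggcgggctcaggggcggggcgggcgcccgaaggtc
Ankrd37 held 4 matches, 6 to 241 bases before its start site, and Adm held 2, at 90 and 54 bases before it. The Pfkfb3 promoter shown had 1 match, and a second Pfkfb3 promoter of the table, which is not shown, had 4. Bnip3 had 5 matches, and Ddit4 and Pgk1 had 2 each. The 3 score genes found in the promoter table, Ankrd37, Adm and Pfkfb3, all held the motif, as did 24 of 28 matched genes of the HIF target list and 18 of 21 of the glycolysis list. The motif was common, however, at 46.7% of all 27025 genes, and 22 of 31 matched genes of nuclear oxidative phosphorylation, a list that hardly differed in level, held it as well. A match describes the letters in this window and is not a binding site. Ndufa4l2 and Plod2 were not in the table.

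The lowest score of a high-scoring cell was 3.46 UMIs per 10000, from 5 score UMIs among 14441, and the first cell outside had 3.46 as well, from 4 among 11571. The score of high-scoring cells had a median of 4.72 and reached 22.8. Of the high-scoring cells 128 lay below a score of 4, and 144 cells outside had scores of 3 or more, so the score showed no gap at the cut. Whether high-scoring cells form a separate cluster was not tested. A high-scoring cell held a median of 5 score UMIs (1 to 20). Of the 503 cells, 39 had fewer than 3 such UMIs, and these were shallow cells with a median of 2846 UMIs in total. The number of different score genes detected was 1 in 62 high-scoring cells, 2 in 144, 3 in 180, 4 in 90 and all 5 in 27. Among the 62 cells with a single score gene, Plod2 was the gene in 28 and Ankrd37 in 20. Most high-scoring cells carried at least 3 of the 5 mRNAs. As the rule picked cells by the sum of these genes, the numbers of genes detected are a description only.

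High-scoring cells were slightly shallower than score-0 cells. Their median was 10352 UMIs (5th to 95th percentile 3981 to 18434), against 11033 (4108 to 18826) in score-0 cells and 12878 in the cells between. After thinning every cell to 5000 UMIs, which left out 39 high-scoring and 340 score-0 cells, high-scoring cells had a median of 2060.5 genes and score-0 cells 2131. Without thinning the medians were 3233 and 3426 genes. The median mitochondrial share was 4.26% in high-scoring cells and 3.91% in score-0 cells, and ribosomal protein mRNAs took 21.4% and 19.7% of UMIs. Depth moved with the selection. High-scoring cells made up 7.42% of the 3355 shallowest cells, 4.59% of the 3355 of middle depth and 2.98% of the 3355 deepest. Within these groups of cells the median log2 ratios of the HIF targets described below were 0.56, 0.80 and 0.51.

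By the rule itself, score genes were 0 in score-0 cells and high in high-scoring cells, so their levels in these groups are a description only. In high-scoring cells, Ankrd37 was at 166 CPM, Plod2 at 148, Ndufa4l2 at 95.6, Adm at 59.0 and Pfkfb3 at 45.1. Over all 10065 cells the same genes were at 25.9, 29.9, 13.8, 6.92 and 9.05 CPM. Highest counts in any high-scoring cell were 11 UMIs of Ankrd37, 10 of Plod2, 6 of Ndufa4l2, 5 of Adm and 3 of Pfkfb3.

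To see each gene free of its own part in the selection, cells were chosen by the other 4 genes and the gene left out was measured. Ndufa4l2 was then at 55.3 CPM (49.2 to 61.9) in high-scoring cells and at 8.45 (7.73 to 9.23) in cells without a UMI of the other 4, a log2 ratio of 2.71. Adm stood at 32.7 CPM (28.0 to 37.9) against 3.43 (2.96 to 3.95), a log2 ratio of 3.25, the widest gap of the 5. Ankrd37 reached 87.6 against 18.5 CPM, a log2 ratio of 2.24. For Pfkfb3 the values were 30.3 and 6.48 CPM (2.23), and for Plod2 79.5 and 23.8 CPM (1.74). Each gene was thus between 1.74 and 3.25 log2 units higher in cells picked by the other 4, and its intervals did not overlap between the groups. UMIs of the gene left out were seen in 38.0% of high-scoring cells for Ndufa4l2, 23.7% for Adm, 41.2% for Ankrd37, 26.0% for Pfkfb3 and 48.7% for Plod2. In the cells without the other 4 genes these shares were 8.36%, 3.32%, 16.7%, 7.06% and 22.4%. The high-scoring cells of these selections had medians of 9980 to 10471 UMIs and the cells compared with them 11061 to 11330.

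A split of the UMIs of every cell at random into equal parts gave a like picture. When cells were chosen on one part, the 5 genes summed to 326 CPM (305 to 349) on the other part in high-scoring cells, against 593 CPM on the part used for the choice. Score-0 cells of the split stood at 61.6 CPM (59.2 to 64.1), lower by 2.41 log2 units (2.29 to 2.52). The difference between 593 and 326 CPM is the share of the level that came with the choice itself.

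**Figure D1:**
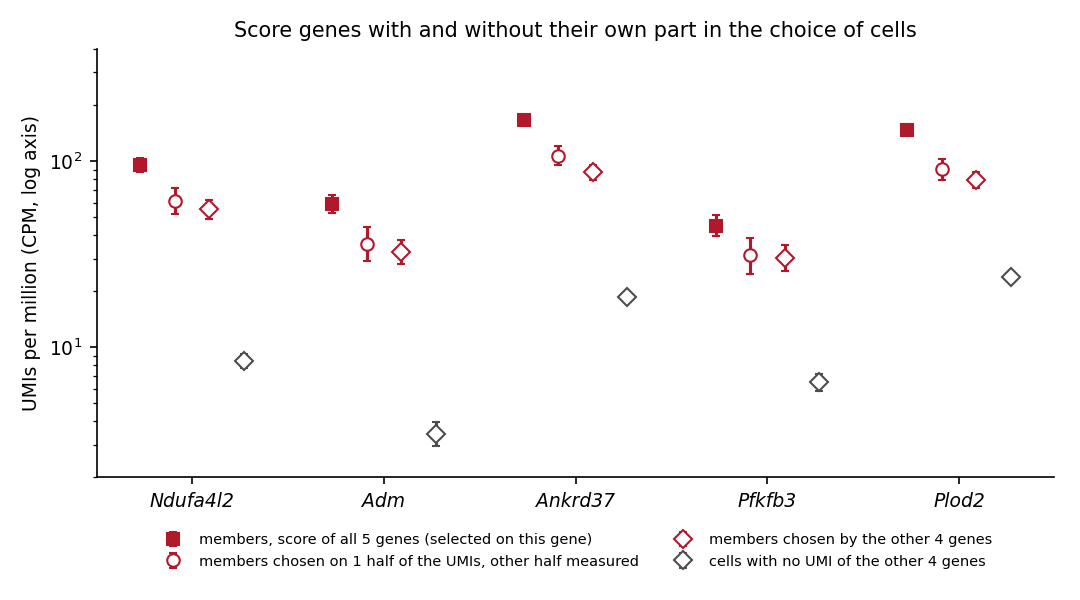
Level of each score gene in CPM (log axis) with 95% intervals for counting error. Filled squares are the high-scoring cells as selected on all 5 genes, open circles the same genes on UMIs not used for the choice, open red diamonds cells chosen by the other 4 genes and grey diamonds cells without a UMI of those 4. Open red symbols lie below the squares and above the grey diamonds for all 5 genes, for example at 55.3 and 61.2 against 95.6 and 8.45 CPM for Ndufa4l2.

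No cell type of the library that should lack the score genes could serve as background for all 5. In 47 fibroblast-like cells (at least 20 UMIs of Col1a1, Col1a2 and Col3a1, median 19572 UMIs), Plod2, which fibroblasts use for collagen, was at 88.6 CPM, and Adm was at 11.9 CPM. Ndufa4l2 was nearly absent there, at 2.16 CPM (0.262 to 7.81) with a UMI in 2 of 47 cells (4.26%, 0.520% to 14.5%). The 38.0% of cells with an Ndufa4l2 UMI among those chosen by the other 4 genes lay above that.

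The name hypoxia response was set beside 38 known HIF target genes outside the score. This list was made with earlier results of these data known, so it is no independent check. High-scoring cells had more mRNA of most of them. Of 28 genes with at least 5 CPM over both groups, 24 had a log2 ratio above 0 and 15 were at least 1.5-fold higher, whereas 40.9% of all 9261 genes measured lay above 0 and 2.84% were that much higher. None of the 28 was at least 1.5-fold lower, against 2.82% of all genes. Ratios are on the log2 scale of CPM + 1, which understates those of low genes. The median log2 ratio of the list was 0.72, with a range from -0.39 to 2.46, against -0.06 over all genes. Thinning every cell to 5000 UMIs before scoring lowered this median to 0.42, and counting only genes of at least 20 CPM lowered it to 0.41. The other 10 genes were under the filter. Because a gene low in score-0 cells can pass such a filter through the high-scoring cells alone, the filter was also put on score-0 cells only (added after the data had been seen). That left 25 genes, of which 12 were at least 1.5-fold higher (2.66% of all genes) and none lower, with a median of 0.46. With no filter, 21 of all 38 were higher (2.54% of all genes), none was lower and 31 lay above 0.

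Among targets that act in stress and cell death, Ddit4, an inhibitor of mTORC1 signalling, was at 126 CPM (116 to 136) in high-scoring and 22.0 CPM (20.7 to 23.3) in score-0 cells, or 2.46 log2 units higher (2.33 to 2.60). A Ddit4 UMI was present in 58.3% and 19.1% of the cells, and in 42.2% and 9.93% after thinning. Bnip3, a receptor for mitophagy, was at 150 against 41.5 CPM, a log2 ratio of 1.82 (1.71 to 1.94). Its relative Bnip3l differed much less, at 138 against 111 CPM (0.32). Ndrg1, a differentiation- and stress-linked gene, was at 42.2 and 10.3 CPM (1.93), and Fam162a, a mitochondrial protein, at 418 and 141 CPM (1.57). Higd1a, also mitochondrial, was at 347 and 199 CPM (0.80). The genes named in this paragraph were higher in high-scoring cells, from 0.32 to 2.46 log2 units, but some were picked after their values were seen. Ak4 did not differ, at 39.2 and 41.5 CPM (-0.08), and 24 of the 28 measured HIF targets lay above 0.

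Of the HIF prolyl hydroxylases, Egln1 and Egln3 were higher and Egln2 was not. Egln1, the main HIF prolyl hydroxylase, was at 60.8 CPM (54.4 to 67.8) in high-scoring and 20.2 CPM (19.1 to 21.5) in score-0 cells (1.54). Egln3 was at 59.0 against 24.1 CPM (1.26). Both are themselves HIF targets. Egln2 was at 51.6 against 56.9 CPM (-0.14). Secreted factors and regulators included Stc2, a glycoprotein hormone, at 24.6 and 4.45 CPM (2.23), the repressor Bhlhe40 at 41.4 and 11.5 CPM (1.76) and the angiogenic factor Vegfa at 13.3 and 4.69 CPM (1.33). Vegfa and Stc2 were below 5 CPM in score-0 cells. Mif, a cytokine that was abundant in all cells, was at 1419 against 1098 CPM (0.37).

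Within collagen and protein folding, Ero1l, an oxidase of the endoplasmic reticulum, was at 77.3 and 26.7 CPM, and the collagen prolyl hydroxylases P4ha1 and P4ha2 were at 41.4 and 14.5 CPM (1.46) and at 14.6 and 4.39 CPM (1.53), the latter again below 5 CPM in score-0 cells. In glycogen metabolism, the synthase Gys1 was at 48.8 against 35.3 CPM (0.46). The branching enzyme Gbe1 was at 10.7 against 3.12 CPM, but it fell under the filter of 5 CPM over both groups and is not among the measured genes. A clear exception was Kdm3a, a histone demethylase and a well-known HIF target, which was lower, at 87.5 CPM in high-scoring and 115 CPM in score-0 cells (-0.39, -0.53 to -0.26). The histone demethylase Kdm4b was on the higher side at 17.2 and 8.82 CPM (0.89).

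Glucose uptake and glycolysis were the other arm with a broad difference. Of 22 genes of this list, 20 were measured, 19 of these had a log2 ratio above 0 and 11 were at least 1.5-fold higher, with none lower, against 40.9% and 2.84% of all genes above 0 and that much higher. The median log2 ratio was 0.66 and the list summed to 13926 CPM in high-scoring and 9025 CPM in score-0 cells. The largest ratios were those of transporters for lactate and glucose. Slc16a3, which exports lactate, was at 174 against 62.3 CPM (1.47) and the glucose transporter Slc2a1 at 465 against 191 CPM (1.28, 1.22 to 1.34). The transporter Slc2a3 was at 284 against 149 CPM (0.93), below several enzymes. Slc2a1 UMIs were found in 94.6% of high-scoring and 77.9% of score-0 cells, or 86.9% and 57.7% after thinning.

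Enzymes of the pathway differed by unequal amounts. Phosphoglycerate kinase Pgk1 was at 1282 CPM (1252 to 1313) and 570 CPM (564 to 576) in the order of the groups above (1.17), glucose phosphate isomerase Gpi1 at 500 and 240 CPM (1.06), and triose phosphate isomerase Tpi1 at 537 and 272 CPM (0.98). The phosphofructokinases differed among themselves, with Pfkp at 105 and 54.0 CPM (0.95), Pfkl at 164 and 101 CPM (0.70) and Pfkm at 16.6 and 17.3 CPM (-0.05), the 1 measured gene of the list below 0. Within the Y-linked and tdTomato lines described below, Pfkm was above 0, at 0.42 and 0.15. Lactate dehydrogenase Ldha was at 1603 and 1004 CPM (0.67) and Aldoa at 1458 and 928 CPM (0.65). Gapdh was at 2852 and 2077 CPM (0.46), Pkm at 1939 and 1475 CPM (0.39) and hexokinase Hk2 at 405 and 310 CPM (0.38). Pdk1, a kinase that blocks pyruvate entry into the mitochondrion, was at 91.4 and 62.7 CPM (0.54). Pgk1, Gpi1, Pfkl, Ldha, Aldoa, Gapdh, Pkm and Pdk1 had smaller ratios within both lines. Examples are Pgk1 at 1.03 and 0.91, Ldha at 0.56 and 0.41, and Gapdh at 0.26 and 0.29, in the Y-linked and tdTomato lines. Pfkp, like Pfkm, had a larger ratio in both lines, at 1.04 and 1.21, and Tpi1 and Hk2 in the Y-linked line only.

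**Figure D2:**
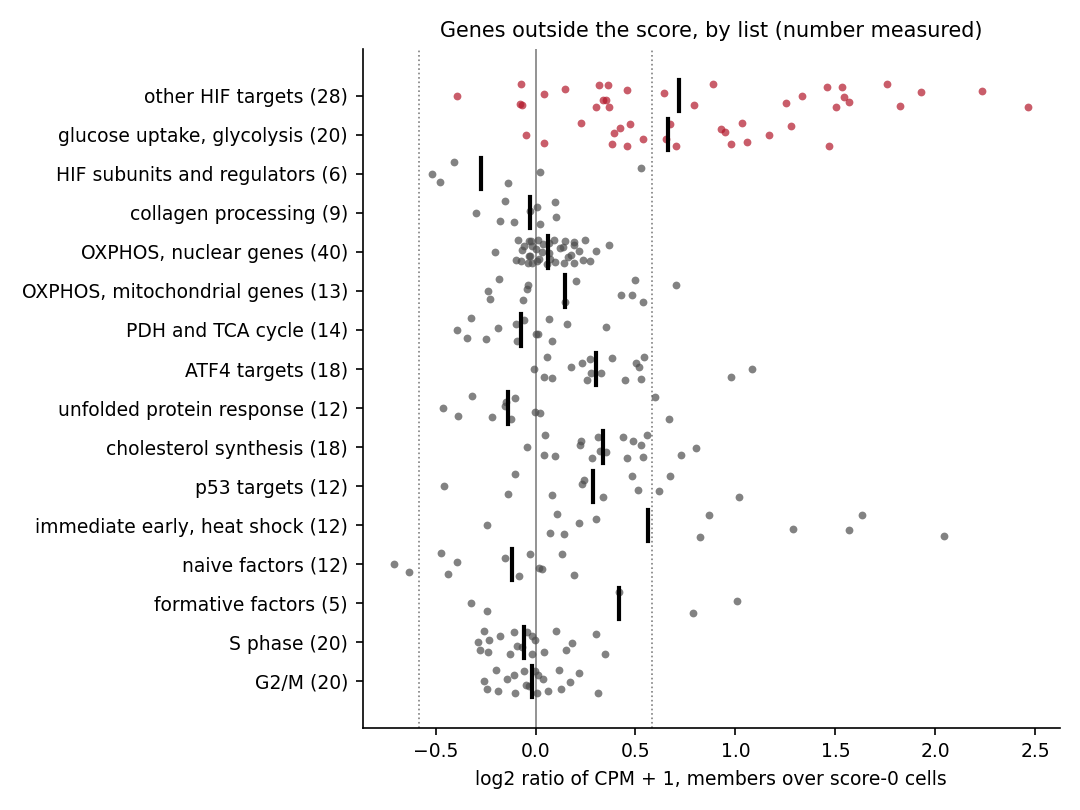
Log2 ratio of CPM + 1 of each measured gene outside the score, high-scoring over score-0 cells (x axis), grouped by list (y axis, with the number measured). Black bars are list medians, dotted lines mark 1.5-fold. The HIF target and glycolysis lists (red) have medians of 0.72 and 0.66, and the 40 nuclear oxidative phosphorylation genes cluster around 0.06.

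In single cells both lists shifted as a whole while the groups still overlapped. HIF targets outside the score summed to a median of 35.3 UMIs per 10000 in high-scoring cells (5th to 95th percentile 19.6 to 56.9) and 22.6 in score-0 cells (13.7 to 35.1). The 95th percentile of score-0 cells was exceeded by 50.7% of high-scoring cells. For glycolysis the medians were 136 (82.0 to 197) and 85.6 (58.4 to 133) UMIs per 10000, and 52.7% of high-scoring cells exceeded the 95th percentile of score-0 cells. About as many high-scoring cells therefore lay within the ordinary range of score-0 cells as above it. HIF target totals were lower in high-scoring cells with a single score gene, at 3071 CPM, than in those with 2, 3, 4 or 5 score genes, at 3601, 3598, 3689 and 3982 CPM, while score-0 cells had 2322 CPM. Depth differed along this order, from a median of 5985 UMIs in cells with 1 score gene to 14797 in cells with 5.

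Levels also followed the score below the selected cells. The 4781 cells between were divided at the median of their scores, 1.06 per 10000. HIF targets outside the score summed to 2322 CPM (2309 to 2335) in score-0 cells, 2447 in the lower-scoring and 2754 in the higher-scoring of these cells, and 3613 CPM (3563 to 3664) in high-scoring cells. Glycolysis went from 9025 over 9927 and 11007 to 13926 CPM. For single genes, Ddit4 was at 22.0, 25.3, 47.3 and 126 CPM, Bnip3 at 41.5, 55.0, 81.3 and 150 CPM, and Pgk1 at 570, 666, 847 and 1282 CPM. Each step was upward, and the last step was the largest for these 3 genes and both lists.

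Genes of the HIF pathway itself did not share this direction. Of 8 subunits and regulators, 6 were measured and none differed by 1.5-fold, with a median log2 ratio of -0.27. Hif1a was at 61.0 CPM in high-scoring and 81.3 CPM in score-0 cells (-0.41), its relative Epas1 at 42.0 and 60.4 CPM (-0.52, but -0.17 and -0.33 within the Y-linked and tdTomato lines described below) and the asparagine hydroxylase Hif1an at 20.5 and 29.0 CPM (-0.48). Vhl was on the other side, at 9.99 and 6.62 CPM (0.53). In a list of collagen-processing genes that does not hold Plod2, P4ha1 and P4ha2, 0 of 9 measured genes were 1.5-fold different in either direction, with a median of -0.03. Crtap was the lowest of them, at 35.5 and 43.8 CPM (-0.30).

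Oxidative phosphorylation differed little. Among 40 nuclear genes for the respiratory chain and ATP synthase, none was 1.5-fold higher or lower, the range was -0.20 to 0.37 and the median 0.06, which was slightly below 0 (-0.02) within the tdTomato line. The 13 mitochondrially encoded mRNAs differed unevenly. mt-Nd5 was at 490 against 301 CPM (0.70) and mt-Co1 at 7942 against 5898 CPM (0.43), but mt-Cytb at 4153 against 4890 CPM (-0.24). In the pyruvate dehydrogenase complex and the tricarboxylic acid cycle, 0 of 14 genes passed 1.5-fold and the median was -0.07, with Pdha1 at 118 and 156 CPM (-0.40), Pdhb at 134 and 170 CPM (-0.34, but -0.08 and -0.12 within the lines), Dld at 40.5 and 50.9 CPM (-0.32) and citrate synthase Cs at 116 and 138 CPM (-0.25).

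The ATF4, cholesterol synthesis, unfolded protein response and p53 lists gave smaller differences than the HIF target list. Their counts are read against 40.9% of all genes above 0 and 2.84% at least 1.5-fold higher. In the ATF4 list of amino acid and integrated stress genes, 17 of 18 measured genes lay above 0, but only Chac1 (11.5 and 4.89 CPM, 1.08) and Nupr1 (39.8 and 19.7 CPM, 0.98) were at least 1.5-fold higher. Chac1 was below 5 CPM in score-0 cells, and with the filter on those cells 1 of 17 genes was that much higher. Atf4 itself was at 271 and 216 CPM (0.33), and its targets Asns, Psat1 and Ddit3 had ratios of 0.52, 0.50 and 0.54. The list median was 0.30. Of 18 cholesterol synthesis genes, which need oxygen for several steps, 17 lay above 0 with a median of 0.34, and Msmo1 (106 and 60.2 CPM, 0.80) and Insig1 (56.8 and 33.9 CPM, 0.73) passed 1.5-fold. The unfolded protein response had a median of -0.14, with Hspa5 at 521 and 578 CPM (-0.15) and Creld2 at 68.8 and 95.3 CPM (-0.46, but -0.20 and -0.03 within the lines), whereas Dnajb9 (0.67) and Herpud1 (0.60) were higher. For Hspa5 the direction differed between the lines, at -0.18 and 0.10. Among p53 targets, 3 of 12 passed (2.84% of all genes), Btg2 (44.0 and 21.2 CPM, 1.02), Cdkn1a (90.2 and 56.3 CPM, 0.67) and Perp (0.62), and Mdm2 was at 0.24. Metallothionein Mt1, also a hypoxia- and metal-responsive gene, was at 2371 and 1872 CPM (0.34).

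Immediate early genes also differed. Of 12 immediate early and heat shock genes, 11 lay above 0 and 6 were at least 1.5-fold higher, with a median of 0.56, against 40.9% and 2.84% of all genes. With the filter on score-0 cells, 6 of these 12 and 12 of 25 HIF targets were that much higher (2.66% of all genes). The medians were then 0.56 and 0.46. Ier3, a stress-induced survival gene, was at 86.0 CPM (78.4 to 94.2) and 20.1 CPM (18.9 to 21.3), which differ by 2.04 log2 units. The AP-1 subunits Jun, Fosb and Fos were at 86.5 and 27.3 CPM (1.63), 27.7 and 8.71 CPM (1.57), and 72.7 and 29.2 CPM (1.29). Dusp1, a phosphatase of MAP kinases, and the transcription factor Egr1 had ratios of 0.87 and 0.82. Jun and Fosb differed between the lines in size, at 0.63 and 0.50 in the Y-linked line and 1.81 and 2.04 in the tdTomato line.

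Pluripotency genes were mostly similar. Core factors were all at or below 0, with Pou5f1 at 78.2 and 81.1 CPM (-0.05) and Sall4 at 131 and 172 CPM (-0.39). Naïve factors had a median of -0.12. Zfp42 (Rex1) was at 353 and 547 CPM (-0.63), but only -0.18 and -0.23 within the lines, and Tfcp2l1 was at 24.8 and 41.1 CPM (-0.71), which held at -0.51 and -0.63 within the lines. Esrrb (41.4 and 56.4 CPM, -0.44) was similar in the lines at -0.44 and -0.40, and Nanog was at 69.9 and 71.3 CPM (-0.03), with -0.21 in the Y-linked and -0.36 in the tdTomato line. Of the formative genes, Lef1 (79.9 and 39.2 CPM, 1.01) and Otx2 (22.7 and 12.7 CPM, 0.79) were higher and remained so in both lines, with Lef1 at 0.79 and 0.80 and Otx2 at 0.87 and 0.93. Pou3f1 was at 99.9 and 74.5 CPM (0.42), but at -0.27 in the Y-linked line and 0.76 in the tdTomato line, and Dnmt3b was at 193 and 242 CPM (-0.32). Cell cycle lists differed little, with medians of -0.06 for 20 S-phase and -0.02 for 20 G2/M genes and none past 1.5-fold. Within the Y-linked and tdTomato lines the G2/M median was above 0, at 0.10 and 0.16, and the S-phase median was 0.01 and -0.09.

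Over all genes outside the score, 263 of 9261 were at least 1.5-fold higher and 261 lower in high-scoring cells, and 26 of the 263 were in the HIF target or glycolysis list. The 15 genes of at least 20 CPM with the largest positive ratio and the same direction in both lines were Ddit4, Ier3, Bnip3, Hes6, Jun, Fam162a, Egln1, Ero1l, Slc16a3, Fos, Slc2a1, Egln3, Calca, Plk2 and Pgk1. Of these, 9 were HIF targets or glycolysis genes and 3 were immediate early genes. Outside the lists, Hes6, a HES family factor, was at 74.0 and 20.8 CPM (1.78, and 1.37 and 1.58 within the lines). Calca, the calcitonin and CGRP gene, was at 61.2 and 25.9 CPM (1.21). Plk2, a stress-inducible kinase, was at 45.5 and 19.2 CPM (1.20, but 0.37 in the Y-linked line, with an interval of -0.21 to 0.91).

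Of the 15 genes at the low end, each but Tagln had a ratio closer to 0 within either line than over both lines together. Ddx3y and Eif2s3y are Y-linked and were at 16.3 and 43.0 CPM and at 16.1 and 35.2 CPM. Gm10260 was at 153 and 315 CPM (-1.03), but at -0.01 in the Y-linked line, BC004004 at 104 and 205 CPM (-0.97), but at -0.10 there, and Nr1h5 at 18.7 and 37.8 CPM (-0.98, and -0.10). The ratio was at -0.40 or lower within both lines for BC023719 (9.80 and 34.0 CPM, -1.70, and -0.90 and -0.78 within the lines), Prr13 (16.5 and 33.3 CPM, -0.97, and -0.58 and -0.87), Gm45184 (-0.93, and -0.81 and -0.56) and Commd7 (93.0 and 175 CPM, -0.91, and -0.52 and -0.40). Tagln, an actin-binding protein of contractile cells, was at 20.0 and 44.5 CPM (-1.12), with -1.89 in the tdTomato line and -0.34 in the Y-linked line. A Tagln UMI was found in 12.5% of high-scoring and 13.6% of score-0 cells, and the highest count in a cell was 14 and 121 UMIs. Of the 2413 Tagln UMIs of score-0 cells, 10 cells held 731. Rgcc (-1.13), Dipk1b (-1.10), Sfmbt2 (-1.09) and the germ-line gene Stra8 (-0.98) were also among them. The value of Sfmbt2 is uncertain, since 119 other annotated genes overlap it on its strand.

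The 2 lines were unequal in the selection. tdTomato UMIs were found in 35 of 503 high-scoring cells (6.96%, 4.89% to 9.54%) and in 141 of 4781 score-0 cells (2.95%, 2.49% to 3.47%). UMIs of the Y-linked genes Ddx3y or Eif2s3y were found in 111 high-scoring cells (22.1%, 18.5% to 25.9%) and in 2282 score-0 cells (47.7%, 46.3% to 49.2%). The tdTomato tag was thus more frequent and the Y-linked tag less frequent among high-scoring cells, with intervals that did not overlap. After thinning to 5000 UMIs the shares were 4.09% and 1.10% for tdTomato and 12.9% and 29.3% for the Y-linked tag. As background for free RNA, none of the 47 fibroblast-like cells had a tdTomato UMI, which allows a share of up to 6.38%. A Y-linked UMI was found in 53.2% of these 47 cells, so they gave no such background for the Y-linked tag. At least 1 UMI of each tag was seen in 2 high-scoring and 13 score-0 cells.

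Because the tags were sparse, cells were also placed in a line by whichever of 2 sets had more UMIs, Ddx3y, Eif2s3y and Ipp for the Y-linked line or tdTomato, Dera and Slc25a13 for the tdTomato line. This gave 5031 cells of the Y-linked line, 2742 of the tdTomato line and 2292 of neither. A tdTomato UMI was found in only 15.8% of the tdTomato line, and its other cells were placed there by Dera or Slc25a13. UMIs of Ddx3y or Eif2s3y were found in 5.18% of the tdTomato line and 80.4% of the Y-linked line. Placement in a line is thus approximate. The tdTomato tag marks WT by the labels, so the Y-linked line would be Cnot8 KO, but Cnot8 mRNA was not lower there, at 71.8 CPM (69.7 to 73.8) against 44.7 CPM (42.6 to 46.9) in the tdTomato line. The assay reads 3′ ends, which lie outside the targeted exon, so this does not check the label. Since the lines differed in Y-linked mRNA, origin and Cnot8 genotype together, these cannot be told apart.

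High-scoring cells were 125 of the Y-linked line (2.48%, 2.07% to 2.95%), 217 of the tdTomato line (7.91%, 6.93% to 8.99%) and 161 of the cells of neither (7.02%, 6.01% to 8.15%). The order of both lines held at each depth. Among the shallowest cells the shares were 4.30% and 12.6%, among those of middle depth 2.11% and 7.70%, and among the deepest 1.27% and 5.45%, without overlap of the intervals. All 5 score genes were lower over the whole Y-linked line, with 21.2 against 41.8 CPM for Plod2, 9.97 against 19.0 for Ndufa4l2, 6.61 against 11.9 for Pfkfb3, 5.34 against 9.28 for Adm and 20.9 against 32.7 for Ankrd37. Log2 ratios of the Y-linked to the tdTomato line ran from -0.98 for Plod2 to -0.65 for Ankrd37.

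**Figure D3:**
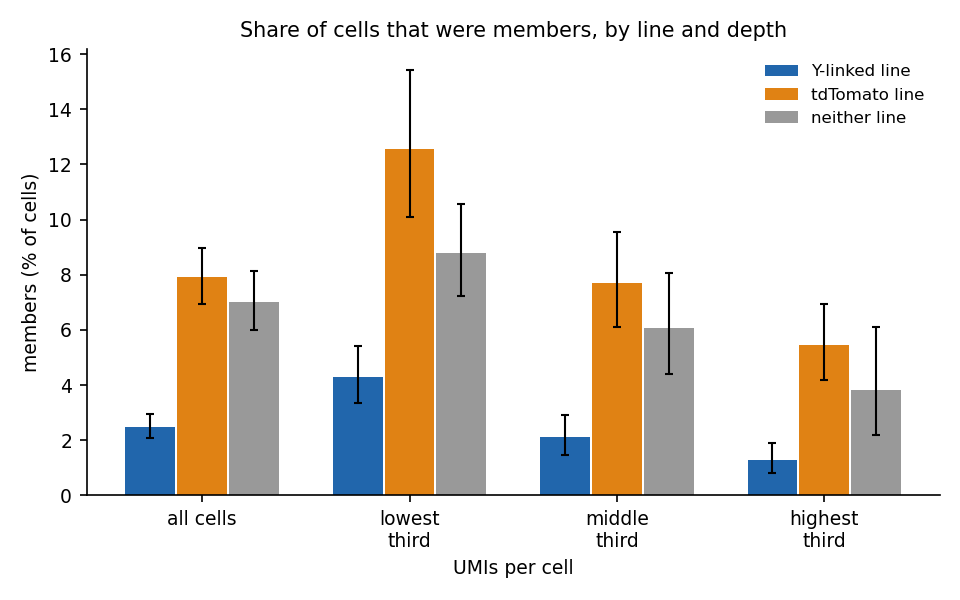
Percentage of cells that were high-scoring in each line (bars, with exact 95% binomial intervals for counting error), for all cells and for cells ranked by UMIs in 3 groups of equal size. The tdTomato line is above the Y-linked line in every group, at 7.91% against 2.48% over all cells.

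Since the selection was unequal between the lines, ratios were also taken within each. The HIF target median was 0.67 in the Y-linked line and 0.89 in the tdTomato line, with 24 and 26 of 28 genes above 0, and that of glycolysis was 0.57 and 0.48, with 19 and 20 of 20 above 0, against medians of -0.02 over all genes in both lines. Ddit4 stood at 2.16 and 2.46, Bnip3 at 1.87 and 1.58, Ndrg1 at 1.88 and 1.89 and Slc2a1 at 1.26 and 1.05. Values within the lines therefore remained on the same side for these genes. For Vegfa the ratio was 1.87 (1.26 to 2.44) in the Y-linked and 0.97 (0.27 to 1.67) in the tdTomato line, whose intervals overlapped. P4ha2 was at 1.49 and 2.13, with intervals that overlapped as well. Kdm3a was below 0 in both, at -0.37 and -0.17, as was Hif1a at -0.30 and -0.22.

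**Figure D4:**
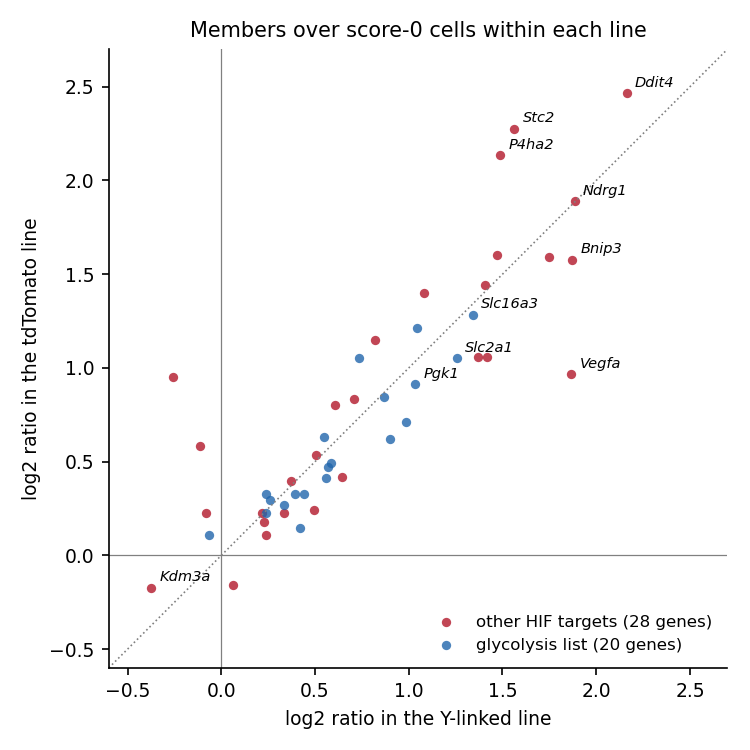
Log2 ratio of high-scoring over score-0 cells for each of 28 HIF targets and 20 glycolysis genes within the Y-linked line (x axis) and within the tdTomato line (y axis), with the dotted line at equality. Most genes lie in the upper right, such as Ddit4 at 2.16 and 2.46, and Kdm3a lies below 0 on both axes.

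At the same score the tdTomato line had more of both lists. HIF targets outside the score summed to 2180 CPM in score-0 cells of the Y-linked line and 2605 CPM in those of the tdTomato line, and to 3117 and 3794 CPM in high-scoring cells. Glycolysis stood at 8121 and 11022 CPM in score-0 cells and at 11535 and 15034 CPM in high-scoring cells. Score-0 cells of the tdTomato line thus came close to the high-scoring cells of the Y-linked line in glycolysis, though not in HIF targets.

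**Figure D5:**
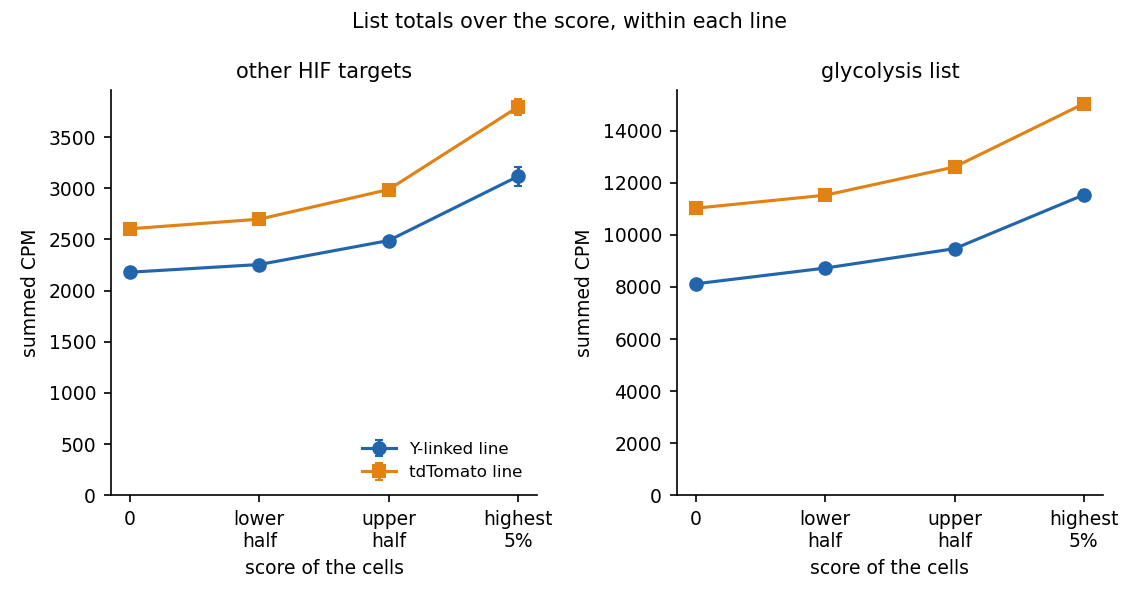
Summed CPM of HIF targets outside the score (left) and of the glycolysis list (right) in cells of score 0, in cells between split at the median of their scores, and in high-scoring cells (x axis), for each line, with Poisson intervals. Both lists increase with the score in both lines, for HIF targets from 2180 to 3117 CPM and from 2605 to 3794 CPM.

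Markers of other cell types were examined in the same cells. Trophoblast markers were higher in high-scoring cells, with the 8 genes summing to 65.1 CPM (58.5 to 72.3) against 39.4 CPM (37.8 to 41.1). Of 3 measured, Hand1 (13.1 and 4.34 CPM, 1.40) and Ascl2 (21.6 and 11.5 CPM, 0.85) were at least 1.5-fold higher (2.84% of all genes). Hand1 passed the filter through the high-scoring cells alone, with a UMI in 3.98% of high-scoring and 3.18% of score-0 cells, and the 10 high-scoring cells with the most Hand1 held 60 of its 71 UMIs. Of the other defining markers, Krt7 was at 5.73 and 2.12 CPM (1.11, and 1.26 and 1.01 within the lines), Cdx2 at 1.85 and 0.941 CPM (0.55) and Elf5 at 0.370 and 0.332 CPM (0.04). At least 1 UMI of Cdx2, Hand1, Krt7 or Elf5 was found in 50 high-scoring cells (9.94%) and 265 score-0 cells (5.54%). Leaving out all such cells before the selection, which was added after the data had been seen, gave HIF target and glycolysis medians of 0.71 and 0.65. Fibroblast markers summed to 46.8 and 70.2 CPM, of which Tagln made up 20.0 and 44.5 CPM, with Col1a2 at 0 by the rule. Primitive endoderm (17.2 and 20.0 CPM), 2-cell-like (3.51 and 5.20 CPM) and mesendoderm (5.18 and 6.49 CPM) markers were low in both groups.

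The same rule was applied to the 48h-EpiLC library, in which ESCs had been differentiated for 48 h with activin A and bFGF without feeders. It chose 463 of 9267 cells, against 3120 of score 0, with medians of 12533 and 14132 UMIs. HIF targets outside the score had a median of 1.30, with 18 of 27 measured at least 1.5-fold higher (3.93% of all genes), and glycolysis a median of 0.84. With the filter on score-0 EpiLCs alone, 17 of 26 HIF targets were that much higher (3.67% of all genes), with a median of 1.22. Ddit4, Bnip3 and Slc2a1 were at 2.31, 1.89 and 1.60 in EpiLCs and at 2.46, 1.82 and 1.28 in ESCs, and Ndrg1, which was at 4.35 CPM in score-0 EpiLCs, at 3.09 and 1.93. Kdm3a differed in direction, at 50.3 and 28.0 CPM (0.82) in EpiLCs. Adm was at 20.9 CPM over all EpiLCs and 6.92 CPM over all ESCs. High-scoring EpiLCs had a tdTomato UMI in 7.13% and a Y-linked UMI in 14.9% of cells, against 2.82% and 54.1% in score-0 EpiLCs. With 1 library per stage, stage and library cannot be told apart.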

How the data were processed

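The authors made the deposited values, whole UMI counts per gene and cell barcode, by running Cell Ranger 3.0.2 with its defaults against mm10 plus the coding sequence of tdTomato. No normalization or removal of free RNA is stated. Whether counting used the strand was not given in the sources used here. Gene positions came from GENCODE M21 on GRCm38, in which 32235 of 32286 features were found, and promoters from RefSeq (GRCm38.p6). Genotype labels were not used for grouping. The deposited genotype label reads wild type for both libraries, although titles and protocol describe a mixture of WT and Cnot8 KO cells in each.

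With numpy 2.4.6, scipy 1.17.1 and pandas 2.3.3 (python 3.11.15), UMIs were summed over the cells of a group and scaled to its total (CPM). A gene was measured at 5 CPM over both groups, and ratios are log2 of CPM + 1, with exact conditional binomial intervals for single genes carried to that scale. Called means past 1.5-fold. Cells of 1 library are not replicates, so no test was made. Thinning drew 5000 UMIs per cell. No doublet caller was run, and leaving out cells with both line tags and the deepest 10% was an alternative instead. Steps were tested on simulated data.

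The members, lists and line genes were chosen with earlier results of these data known. Named genes were the score genes, line tags, up to 6 genes per list (largest ratios and defining members), further genes of the HIF target and glycolysis lists that were picked after their values were seen, and the 15 genes at each end with at least 20 CPM over both groups and the same direction in both lines. Some genes this rule names are not reported here.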

Additional observations from a re-analysis of the deposited data

How the results depend on the processing

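The HIF target and glycolysis medians kept their direction in all 24 alternatives. They ran from 0.41 (at 20 CPM or more, and 0.42 with thinning before scoring) to 0.84 and from 0.46 to 0.75. The 0.84 is the alternative with the tdTomato line only, whereas the 28 genes measured over both lines had 0.89 in that line. The nuclear oxidative phosphorylation median, 0.06, lay at -0.021 in the tdTomato line and at -0.0085 as the mean of both lines' ratios, an alternative added after the data were seen, like those on score UMIs, shared barcodes and trophoblast markers. Genes at least 1.5-fold higher (263) numbered 467 with the highest 2% selected, 151 with 10%, 130 after thinning, 166 without Plod2, 820 unfiltered and 87 at 20 CPM or more, and lower genes (261) 537, 129 and 129 for the first 3 of these, 600 unfiltered, 99 at 20 CPM or more and 136 as the mean of both lines. The unfiltered setting and that at 20 CPM change the number of genes tested, and the cause of the other differences was not tested. The difference in Y-tag share (-25.7 percentage points) was -9.21 with every cell thinned to 5000 UMIs before scoring. This selects cells anew, as in the other thinned settings of this section. With the selection kept, the thinned shares were 12.9% and 29.3%. The ratio of median UMIs, 0.94, was 0.881 with 2%, 0.885 in the Y-linked line and 0.993 within depth groups. Score gene levels on UMIs not used for the choice, and with the other 4 genes choosing, were 61.2 and 55.3 CPM for Ndufa4l2, 36.1 and 32.7 for Adm, 107 and 87.6 for Ankrd37, 31.2 and 30.3 for Pfkfb3, and 90.8 and 79.5 for Plod2. Of 101 named genes, Hspa5 (0.10, tdTomato line) and Pou3f1 (-0.27, Y-linked line) changed direction. Pfkm, close to 0 at -0.05, lay above 0 within each line, at 0.42 in the Y-linked and 0.15 in the tdTomato line. No paired analysis was possible because there is 1 library per stage. Sparse UMIs limit single-cell calls, and 39 selected cells rest on fewer than 3 score UMIs.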
